A study of Mus musculus with 12 samples.

Results

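The genes described here build, bind, trim or regulate the extracellular matrix of the kidney: 43 listed genes for collagens, laminins, nidogens, matrix glycoproteins, TGF-beta ligands and receptors, and the proteases, inhibitors and crosslinking enzymes of matrix. Each gene was read from the probe set with a single gene symbol and the highest mean over 12 arrays, and was kept if that probe set was above 4 (log2) on at least 3 arrays. Of the 43, 42 had such a probe set (Fbn1 had none), 24 were kept and tested, and 18 lay below the filter. They are 24 of the 9744 genes tested on these arrays.

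RNA was measured on Affymetrix mouse arrays from kidney proximal tubules isolated by Percoll centrifugation, which separates cells and fragments by density, from mice aged 20 weeks on a normal diet. Each of 4 groups held 3 samples: wild type, catalase-Tg (mice with a catalase transgene), dB/dB, and mice with both, dB/dB catalase-Tg. The dB/dB mouse carries a recessive leptin receptor mutation and is widely used as a model of obesity and type 2 diabetes, and catalase breaks down hydrogen peroxide. The comparisons ask whether matrix and TGF-beta transcripts of the tubules differed with the dB/dB genotype and with the transgene. The labels give no promoter or species of origin for the transgene, no strain and no sex. The samples are numbered 1 to 3, and whether each came from its own animal is not said, so the p-values speak for the spread between these arrays, part or all of which may be technical.

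Proximal tubule cells rest on a basement membrane, a sheet of type IV collagen and laminin networks joined by nidogens and proteoglycans. In the interstitium between tubules, fibroblasts lay down fibrillar collagens, fibronectin and elastic fibres. TGF-beta, secreted in a latent complex, signals through the receptors TGFBR1 and TGFBR2 to SMAD proteins and is a well-known inducer of matrix genes, among them Ccn2, while TIMP proteins inhibit the metalloproteases that degrade matrix. In diabetic kidney disease, basement membranes thicken and interstitial matrix accumulates.

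None of the 24 tested genes passed the threshold in any of 7 comparisons (limma, adjusted p under 0.05 over 18144 probe sets). In the group means, 21 of the 24 were highest in dB/dB and 18 were lowest in catalase-Tg. The largest of the ranges within a group nevertheless exceeded the range of the 4 group means for 20 of the 24 genes. Single arrays spread more widely than means, and the share over all probe sets was not computed, so this count is a description. The lists of other matrix, TGF-beta pathway, collagen processing and matrix receptor genes also held 0 genes past the threshold in every comparison.

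All 18 proximal tubule markers passed the filter, and the log2 of their summed unlogged values was between 15.6 and 17.8 on the 12 arrays. Markers of other kidney cells were present too, among them 10 of 10 loop of Henle and distal tubule, 15 of 15 endothelial, 7 of 9 podocyte and 9 of 12 fibroblast and mural markers. So were 4 of 10 leukocyte and 4 of 10 collecting duct markers, with Cd68, Adgre1 and Cd3e of leukocytes and Aqp2 of the collecting duct below the filter. On wild type 1 the sum of the loop of Henle and distal tubule markers (16.8) was above that of the proximal tubule markers (15.6). Passing the filter therefore does not show how pure the preparations were. The probe set used for catalase, Cat, did not set the transgenic groups apart (10.7 to 12.7 in wild type, 11.98 to 12.4 in catalase-Tg, 12.2 to 12.6 in dB/dB, 11.8 to 12.9 in dB/dB catalase-Tg), and Lepr lay below the filter, so neither gene checks the labels. Array weights, which limma estimates from the distance of an array to its group, were lowest for dB/dB catalase-Tg 1 (0.172), wild type 1 (0.227) and catalase-Tg 1 (0.287). Results are therefore given with all arrays and, where it matters, without these 3 together.

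Promoter sequence was at hand for 17 of the 24 tested genes, in 19 windows from RefSeq (GRCm38.p6) covering the 250 bases before a transcription start. Shown 5′ to 3′ are the 4 genes with a window whose values ranged most widely over the arrays, Bgn, Timp2, Nid1 and Sparc, and Timp3, whose difference had the opposite sign to most of the others in all 4 comparisons between groups. In catalase-Tg against wild type the Timp3 difference was only 0.02, and it was −0.58 without wild type 1. Capitals mark matches, on either strand, to the letters CAGACA (the CAGA box bound by SMADs), GGAATG (a TEAD site), CCAAT and GGGCGG (a GC box).
Bgn, chrX:73483351-73483600, plus strand: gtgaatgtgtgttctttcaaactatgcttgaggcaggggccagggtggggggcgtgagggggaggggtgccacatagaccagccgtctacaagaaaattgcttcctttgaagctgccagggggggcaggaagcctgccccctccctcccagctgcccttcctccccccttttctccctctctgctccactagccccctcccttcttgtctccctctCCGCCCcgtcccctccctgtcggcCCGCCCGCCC
Nid1, chr13:13437352-13437601, plus strand: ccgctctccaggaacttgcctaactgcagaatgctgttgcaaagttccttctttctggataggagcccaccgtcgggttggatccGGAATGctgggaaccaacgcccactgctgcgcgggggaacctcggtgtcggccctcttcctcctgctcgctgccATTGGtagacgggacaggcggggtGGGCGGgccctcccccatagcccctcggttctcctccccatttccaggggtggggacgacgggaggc
Sparc, chr11:55420081-55420330, minus strand: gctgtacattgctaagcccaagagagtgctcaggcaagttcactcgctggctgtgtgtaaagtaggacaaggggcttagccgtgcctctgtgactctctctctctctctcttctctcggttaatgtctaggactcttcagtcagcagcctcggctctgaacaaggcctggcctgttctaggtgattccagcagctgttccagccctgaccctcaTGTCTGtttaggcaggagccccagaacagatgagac
Timp2, chr11:118355412-118355661, minus strand: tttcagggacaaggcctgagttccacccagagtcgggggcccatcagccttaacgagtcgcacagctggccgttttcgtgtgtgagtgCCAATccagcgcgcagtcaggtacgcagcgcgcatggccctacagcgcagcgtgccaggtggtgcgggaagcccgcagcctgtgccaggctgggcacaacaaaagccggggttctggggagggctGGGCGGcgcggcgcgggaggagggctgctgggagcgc
Timp3, chr10:86300162-86300411, plus strand: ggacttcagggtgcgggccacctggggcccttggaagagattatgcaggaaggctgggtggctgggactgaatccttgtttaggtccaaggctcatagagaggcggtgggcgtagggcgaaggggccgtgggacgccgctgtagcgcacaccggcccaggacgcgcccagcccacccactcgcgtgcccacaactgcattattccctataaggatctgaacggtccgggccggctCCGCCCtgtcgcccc

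The CAGA letters stood in the Sparc window, 36 to 31 bases before the start, and in those of Col18a1, Col1a2, Lamb2, Tgfb2 and Tgfbr1. That made 6 of 19 member windows, against 17.1% of all 32851 windows of the same length. The TEAD letters stood in the windows of Nid1 and Col18a1, or 2 of 19 against 12.6%. The GC box was found in 11 of 19 against 32.7%, and CCAAT in 11 of 19 against 33.8%. The palindrome GTCTAGAC (0.167% of all windows) and the AP-1 letters TGACTCA (4.46%) stood in 0 of 19, and TATAAA (12.4%) in 1, that of Tgfb2. No motif was found to overlap another kind of motif in the 5 windows shown, while the last pair of GC boxes in the Bgn window overlap each other. Col4a1 and Col4a2 are transcribed away from each other, and their windows of 250 bases before to 50 after the start share 78 bases at chr8:11312777-11312854.

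Among basement membrane collagens, the listed chains of type IV collagen, Col4a1 to Col4a4, were above the filter on all 12 arrays. Their ranges over the arrays were 1.25 to 1.47. Levels are log2 values of 1 probe set and are not compared between genes; in each sentence the 3 values of a group are those of samples 1, 2 and 3. Col4a1, which forms the most widespread type IV network with Col4a2, stood at 9.64, 9.01 and 9.12 in wild type, 9.32, 8.999 and 8.77 in catalase-Tg, 9.37, 8.97 and 9.70 in dB/dB, and 9.26, 8.40 and 8.84 in dB/dB catalase-Tg. Its groups overlapped in each of the 4 comparisons. Col4a2 stood at 8.50, 7.91 and 8.10, at 8.65, 7.98 and 8.02, at 8.55, 7.98 and 8.94, and at 8.86, 7.69 and 8.005 in the same order of groups. Its groups overlapped as well, and its means differed by at most 0.32 in these comparisons.

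Col4a3 and Col4a4 encode chains of the type IV network of the glomerular and some tubular basement membranes, the network affected in Alport syndrome. Col4a3 stood at 9.26, 8.83 and 9.19 in wild type, 9.10, 8.97 and 8.84 in catalase-Tg, 9.53, 8.57 and 10.03 in dB/dB, and 8.58, 8.71 and 9.02 in dB/dB catalase-Tg, with overlap throughout. Col4a4 stood at 10.95, 10.13 and 10.58 in wild type, 10.05, 10.11 and 9.84 in catalase-Tg, 10.96, 10.78 and 11.12 in dB/dB, and 10.47, 9.86 and 9.80 in dB/dB catalase-Tg. All 3 arrays of either transgenic group lay below all 3 of the matching group without the transgene. Col18a1, whose C-terminal fragment is endostatin, ranged from 6.81 to 8.39, and Col15a1, a related collagen, did not pass 3.79 on any array.

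Among laminins and nidogens, Lamb1 and Lama5 were above the filter on all 12 arrays, and Nid1, which links laminin to type IV collagen, varied most. Nid1 stood at 5.68, 3.15 and 4.72 in wild type, 3.51, 2.93 and 2.30 in catalase-Tg, 6.12, 5.20 and 6.94 in dB/dB, and 4.39, 3.08 and 2.95 in dB/dB catalase-Tg. The 3 dB/dB arrays were above all 6 arrays of the transgenic groups, while wild type overlapped both. Lamb1, a laminin beta chain, stood at 9.38, 8.52 and 8.83 in wild type, 7.86, 8.54 and 8.52 in catalase-Tg, 9.42, 9.24 and 9.30 in dB/dB, and 8.84, 8.47 and 8.62 in dB/dB catalase-Tg. Its lowest value was on catalase-Tg 1, and the dB/dB arrays were again above both transgenic groups. Lamb2, the beta chain typical of glomerular and vascular membranes, stood at 6.99, 4.61 and 5.54, at 5.99, 3.49 and 3.49, at 6.68, 5.73 and 7.02, and at 6.55, 3.80 and 4.05 in the same order of groups. In the transgenic groups, sample 1 alone was above 4.05. Nid2, the second nidogen, stood at 4.68, 4.91 and 4.34 in wild type, 5.66, 3.69 and 4.01 in catalase-Tg, 4.44, 4.42 and 4.70 in dB/dB, and 4.31, 3.81 and 4.29 in dB/dB catalase-Tg. Its widest spread was within catalase-Tg. Lama5 and Lamc1 ranged from 5.56 to 8.15 and from 3.92 to 5.60.

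Fibrillar and beaded collagens were mostly at or near the floor of the values, 2.30. Col1a1, the major chain of type I collagen, did not pass 2.52 on any array. Col3a1, the chain of type III collagen, stood at 2.99, 2.33 and 2.40 in wild type, 2.35, 2.34 and 2.33 in catalase-Tg, 3.58, 2.34 and 2.34 in dB/dB, and 3.03, 2.33 and 2.34 in dB/dB catalase-Tg. Col5a1, Col6a1, Col6a2 and Col6a3 also lay below the filter. Col1a2, the second chain of type I collagen, stood at 6.78, 3.54 and 4.49 in wild type, 4.07, 3.96 and 3.45 in catalase-Tg, 5.87, 5.50 and 6.91 in dB/dB, and 5.69, 4.09 and 3.54 in dB/dB catalase-Tg. Col5a2, a chain of type V collagen, which initiates collagen fibrils, had the widest range of the 24 genes. It stood at 10.53, 6.97 and 7.69 in wild type, 4.73, 2.55 and 2.51 in catalase-Tg, 7.17, 6.32 and 6.58 in dB/dB, and 7.58, 4.31 and 3.80 in dB/dB catalase-Tg. All catalase-Tg arrays were below all wild type and all dB/dB arrays, and 2 of them were near the floor.

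Of the glycoproteins and proteoglycans, 5 were tested: Ccn2, Sparc, Bgn, Eln and Fn1. Ccn2, the connective tissue growth factor that TGF-beta and YAP signalling induce, stood at 10.35, 4.62 and 8.51 in wild type, 5.66, 5.75 and 5.20 in catalase-Tg, 10.26, 8.76 and 11.15 in dB/dB, and 8.75, 6.62 and 5.85 in dB/dB catalase-Tg. Wild type alone spanned nearly the whole range of the other groups. Sparc, a collagen-binding glycoprotein, stood at 10.26, 6.12 and 8.26, at 7.89, 6.82 and 6.40, at 10.13, 8.50 and 10.66, and at 9.77, 7.13 and 6.97 in the same order of groups. Its lowest and its second highest values were both in wild type. Bgn, the proteoglycan biglycan, stood at 8.03, 4.30 and 5.96 in wild type, 5.46, 3.57 and 3.81 in catalase-Tg, 8.46, 6.46 and 8.94 in dB/dB, and 7.92, 4.27 and 4.41 in dB/dB catalase-Tg. As for Sparc, dB/dB catalase-Tg 1 lay within the dB/dB range and samples 2 and 3 lay below it.

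Eln, the core of elastic fibres, stood at 4.23, 2.64 and 2.74 in wild type, 3.58, 2.50 and 2.45 in catalase-Tg, 5.18, 4.30 and 4.77 in dB/dB, and 4.98, 2.42 and 3.00 in dB/dB catalase-Tg. It was above the filter on 5 arrays, all 3 of dB/dB among them, and without the dB/dB arrays it would not have been tested. Fn1, fibronectin, stood at 3.92, 2.64 and 2.72, at 2.76, 2.46 and 2.46, at 4.17, 3.01 and 4.48, and at 4.80, 2.46 and 2.51 in the same order of groups, and passed the filter with just 3 arrays. Eln, Fn1 and Mmp14 (4 arrays) were the kept genes closest to the filter, and Mmp2 and Tgfbi (2 arrays) and Dcn and Thbs1 (1 array) the closest of those left out. Lum was at the floor on every array, and Postn did not pass 3.28. A gene kept through 3 high arrays had to vary, so shares among the kept genes describe those genes only.

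Of the TGF-beta ligands, Tgfb2 alone was kept. Tgfb1, the isoform most often linked to renal fibrosis, stood at 3.57, 2.32 and 2.33 in wild type, 2.37, 2.33 and 2.33 in catalase-Tg, 3.18, 2.45 and 3.30 in dB/dB, and 2.94, 2.37 and 2.32 in dB/dB catalase-Tg, below the filter on all 12 arrays. Tgfb3 was at the floor on all 12. Tgfb2 stood at 5.66, 3.14 and 3.95 in wild type, 5.91, 3.32 and 2.73 in catalase-Tg, 5.63, 4.56 and 5.50 in dB/dB, and 6.40, 2.94 and 3.11 in dB/dB catalase-Tg. In either transgenic group its highest value was that of sample 1. The receptor genes were above the filter on all arrays: Tgfbr1, the type I receptor kinase, stood at 9.14, 8.34 and 8.57, at 7.31, 8.43 and 8.60, at 9.06, 8.71 and 8.86, and at 8.07, 9.001 and 8.93 in the same order of groups. Tgfbr2, the type II receptor that binds the ligand first, stood at 8.73, 7.82 and 8.28, at 7.37, 8.28 and 8.39, at 8.27, 7.91 and 8.79, and at 8.17, 8.21 and 7.81. Both receptors overlapped between the groups in all 4 comparisons, with catalase-Tg 1 lowest.

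Among enzymes and inhibitors, the crosslinking oxidases Lox and Loxl1, the inhibitor Timp1 and the gelatinase Mmp2 were below the filter, with Lox and Timp1 at or near the floor on every array. Timp2 stood at 8.87, 3.75 and 6.88 in wild type, 5.16, 3.63 and 4.28 in catalase-Tg, 7.78, 6.82 and 8.65 in dB/dB, and 7.17, 4.62 and 3.88 in dB/dB catalase-Tg. Timp3, the inhibitor that stays bound to matrix, stood at 11.41, 13.17 and 13.23, at 12.32, 12.81 and 12.74, at 11.87, 11.73 and 12.18, and at 11.71, 12.40 and 12.59 in the same order of groups. Its lowest value was on wild type 1, the array with the highest Timp2. Mmp14, the membrane-anchored metalloprotease that activates pro-MMP2, ranged from 2.58 to 5.82.

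**Figure D1:**
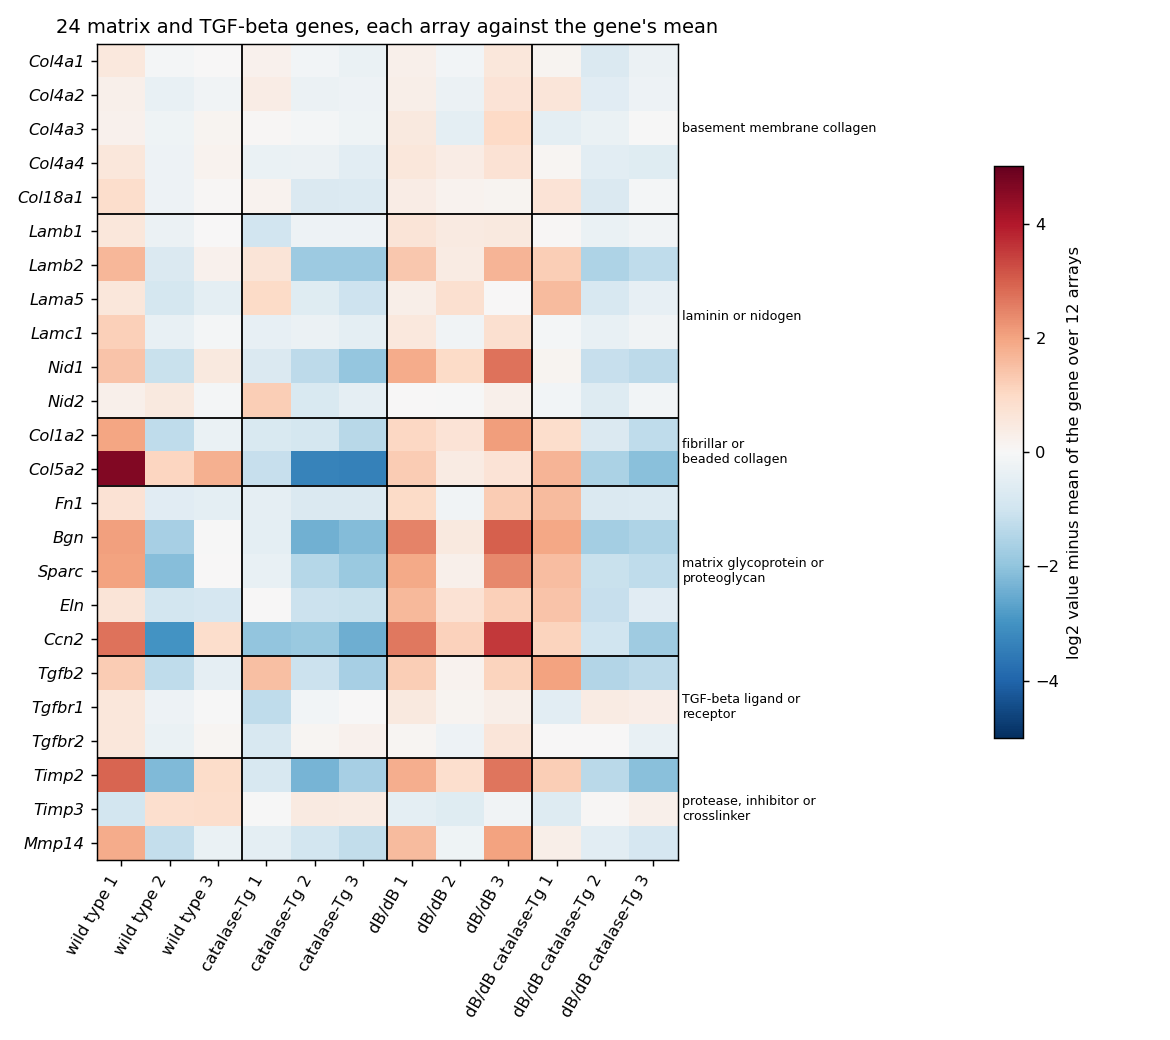
Log2 value of each of the 24 tested genes (rows, grouped by role) on each of the 12 arrays (columns, grouped by genotype), minus the mean of the gene over the arrays, with red above and blue below. Wild type 1, the 3 dB/dB arrays and dB/dB catalase-Tg 1 are red in most rows, and Timp3 is blue on wild type 1.

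**Figure D2:**
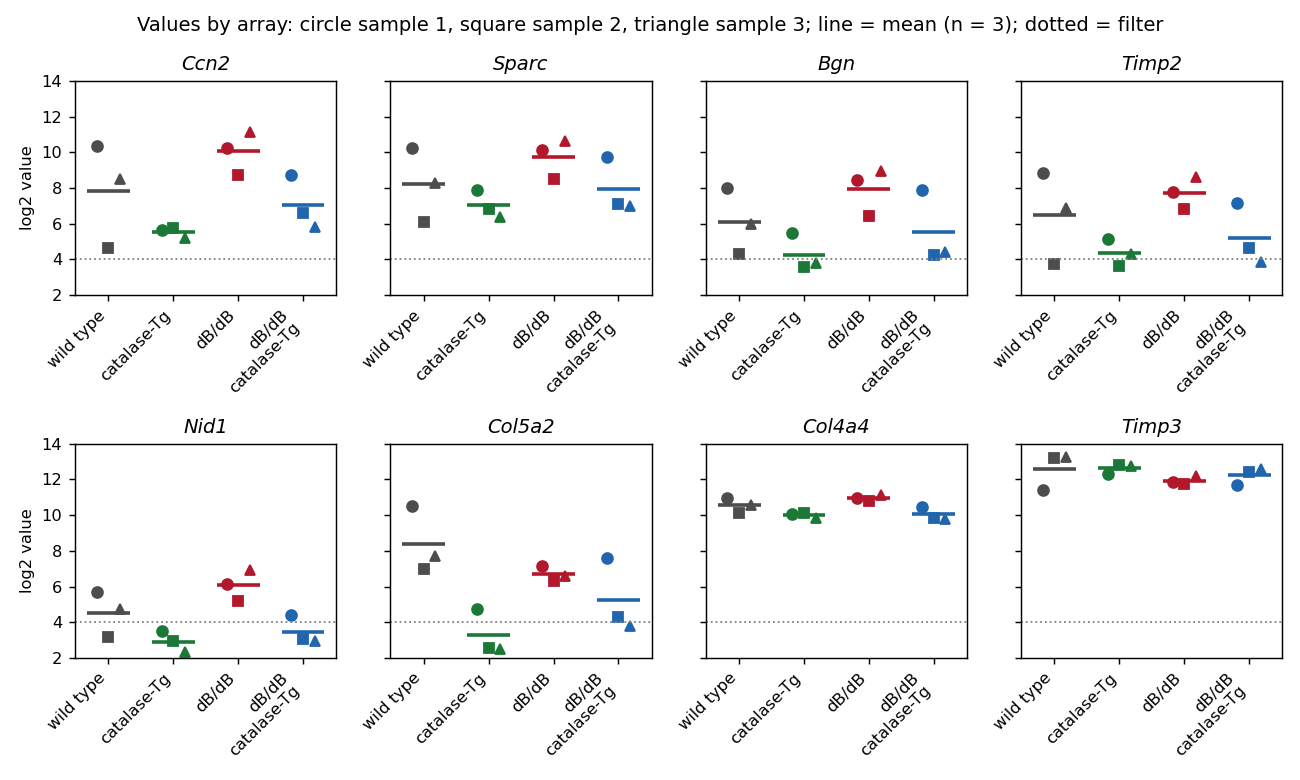
Log2 value of 8 genes on each array by group, with sample 1 as a circle, sample 2 as a square and sample 3 as a triangle, a line at the group mean (n = 3) and a dotted line at the filter of 4. The wild type arrays of Ccn2 span 4.62 to 10.35, and the catalase-Tg arrays of Col5a2 lie at or below 4.73.

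The genes followed an order of arrays within the groups. In wild type, sample 1 held the highest value for 22 of the 24 genes and sample 2 the lowest for 22. In dB/dB, sample 3 was highest for 17 and sample 2 lowest for 22. Sample 1 was highest for 17 genes in catalase-Tg and for 20 in dB/dB catalase-Tg. Wild type 1 lay within or above the dB/dB range for 22 of 24 genes (16 within, 6 above), and dB/dB catalase-Tg 1 lay above all catalase-Tg arrays for 18.

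Endothelial and fibroblast and mural markers moved with most of this order, and markers of other kidney cells did so only in part. A score per array, the mean difference of a list's genes from their means over the 12 arrays, was 1.21, −0.71 and 0.10 for the 24 genes in wild type, −0.24, −0.92 and −1.04 in catalase-Tg, 0.97, 0.24 and 1.24 in dB/dB, and 0.68, −0.77 and −0.75 in dB/dB catalase-Tg. The score of the 15 endothelial markers was 1.57, −1.49 and −0.08, then −0.03, −1.90 and −1.76, then 1.42, 0.90 and 1.86, then 1.48, −0.77 and −1.19. Both scores were thus high on wild type 1, all dB/dB arrays and dB/dB catalase-Tg 1. Other lists departed from the order. In catalase-Tg, sample 1 was lowest for podocyte markers (−2.21) and for loop of Henle and distal tubule markers (−2.11). Within dB/dB, the leukocyte score was highest on sample 2 (1.26), and the collecting duct score was below 0 on wild type 1 (−0.30). The proximal tubule score was lowest on wild type 1 (−2.14) and highest on catalase-Tg 2 and 3 (0.98 and 0.97).

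The log2 of the summed unlogged endothelial values was 9.11 to 12.5 in wild type, 8.40 to 10.8 in catalase-Tg, 11.8 to 12.6 in dB/dB and 9.30 to 12.3 in dB/dB catalase-Tg. For fibroblast and mural markers it was 8.26 to 12.01, 7.83 to 10.2, 11.3 to 12.3 and 8.33 to 12.6, with Des and Cnn1 below the filter. For podocyte markers it was 8.62 to 12.98, 8.86 to 9.25, 10.96 to 13.1 and 8.79 to 11.5. For markers of the loop of Henle and distal tubule it was 14.4 to 16.8, 13.7 to 14.4, 16.4 to 16.6 and 15.7 to 16.3. For the 10 leukocyte markers, of which 4 passed the filter, it was 7.81 to 8.45, 7.61 to 7.88, 7.62 to 9.30 and 7.34 to 12.4. For the 9 collecting duct markers with a probe set, of which 4 passed the filter, it was 7.03 to 7.44, 7.04 to 7.67, 7.88 to 8.69 and 7.49 to 8.78. These sums run over all markers with a probe set, those below the filter included. In the collecting duct sum dB/dB lay above wild type without overlap. Of the 4 past the filter, 2, Slc26a4 and Hsd11b2, had an unadjusted p under 0.05 in that comparison (adjusted p 0.767, limma). The dB/dB ranges of the endothelial, mural, podocyte, loop of Henle and distal tubule, and collecting duct sums lay above those of catalase-Tg without overlap. Of the 10 loop of Henle and distal tubule markers, 10 (100%) had an unadjusted p under 0.05 (limma) in the average dB/dB effect, against 12.2% of all probe sets. In the average transgene effect 8 (80%) did, against 18.1% of all, and 0 passed the adjusted threshold in either. The part of the collecting duct and of the loop of Henle and distal tubule markers in the differences below was not tested. Many matrix genes are expressed by endothelial cells, mural cells and podocytes, and in bulk RNA fewer cells of a type and less RNA per cell cannot be told apart.

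**Figure D3:**
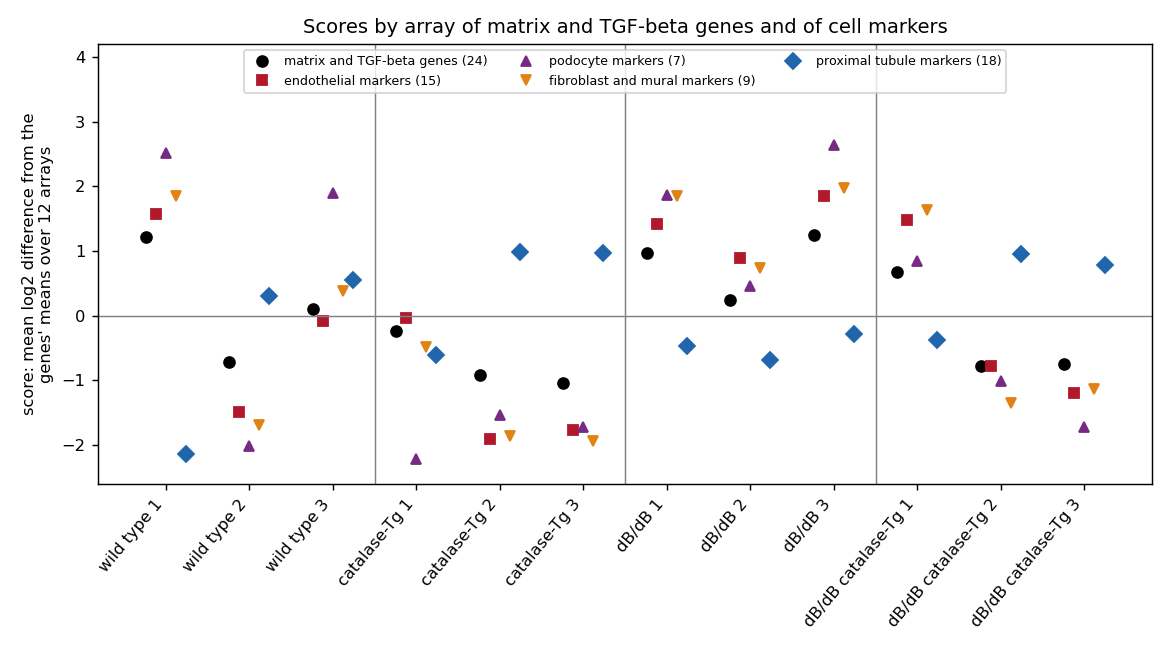
Score of the 24 genes and of 4 marker lists on each array (mean log2 difference from the genes' means over 12 arrays). The scores of the 24 genes and of endothelial, podocyte and fibroblast and mural markers are high on wild type 1 and on the dB/dB arrays, and the proximal tubule score is lowest on wild type 1.

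In dB/dB against wild type, 21 of the 24 genes were higher and 3 lower in dB/dB, with a median difference of 0.52 against −0.11 over all probe sets tested, 38.0% of which were above 0. None passed the adjusted threshold (lowest adjusted p 0.767), as was so for 0% of all probe sets, and 2 (8.33%) had an unadjusted p under 0.05 against 4.16% of all. Nid1 was 1.57 (SE 0.67) higher with an adjusted p of 0.767, and overlapped. In 1 gene the groups did not overlap with dB/dB higher (2.52% of all) and in 0 with dB/dB lower (8.91% of all). That gene was Eln, 1.55 (SE 0.65) higher, which entered the test through its dB/dB values and had to differ, so its value is a description.

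The largest differences were in genes with widely spread wild type arrays, and they depended on which wild type array was included. When 1 array at a time was left out, the difference of 23 of the 24 genes changed by over 1.5 times or changed sign, and 7 changed sign. Ccn2 was 2.23 (SE 1.27) higher in dB/dB, a 4.69-fold ratio of the means, with 1 of 3 dB/dB arrays above all of wild type; it was 0.62 without wild type 2 and 3.49 without wild type 1. Bgn was 1.86 (SE 1.17) higher, 0.96 without wild type 2 and 2.82 without wild type 1, and Sparc was 1.55 (SE 1.06) higher, 0.50 and 2.57 without the same arrays. Nid1 was 0.89 higher without wild type 2 and 2.16 without wild type 1. Timp2, 1.24 (SE 1.20) higher, was at −0.13 without wild type 2. Col4a4 and Lamb1, with narrower spread, were 0.40 (SE 0.25) and 0.41 (SE 0.26) higher, and the other type IV chains were 0.09 to 0.32 higher. Against the trend, Col5a2 was 1.71 (SE 1.12) lower, Timp3 0.68 (SE 0.44) lower and Nid2 0.12 (SE 0.43) lower. Tgfb2 was 0.98 (SE 1.06) higher, and Tgfbr1 and Tgfbr2 were 0.19 (SE 0.37) and 0.05 (SE 0.34) higher. Without the 3 arrays of low weight, 11 of the 24 passed the threshold, 10 higher and Timp3 lower. The 10 include Eln, which was kept only through its dB/dB values, so the count is in part fixed by the filter. Then 26.9% of all probe sets passed the threshold (4875), and each group but dB/dB held 2 arrays. The 3 arrays were chosen for their distance from their group in these same data, which narrows the spread by construction. Wild type 1, one of them, was the highest wild type array for 22 of the 24 genes. Among the 11, Tgfb2 was 1.69 (SE 0.38) and Bgn 2.82 (SE 0.74) higher, and Timp3 was 1.28 (SE 0.16) lower.

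In catalase-Tg against wild type, 21 of 24 genes were lower and 3 higher in catalase-Tg, with a median difference of −0.59 against −0.02 over all probe sets. None passed the adjusted threshold, against 0.022% of all, and 3 (12.5%) had an unadjusted p under 0.05, against 9.15% of all. The groups did not overlap for 2 genes (8.33%), Col5a2 and Col4a4, both lower, a share close to the 7.8% of all that were lower without overlap. For 0 genes did they not overlap with catalase-Tg higher (5.74% of all).

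Col5a2 had the largest fitted difference among the tested genes in this comparison. It was 5.14 (SE 1.12) lower in catalase-Tg, against values of which 2 were near the floor, so the size is not exact, with 3 of 3 arrays below all of wild type and an adjusted p of 0.321 (limma). A second Col5a2 probe set, of lower mean, was 2.64 lower, also without overlap. At the first probe set, Col5a2 was 4.07 lower without wild type 1. With the replicate number as a block, the SE was 0.54 and the adjusted p 0.025 (5 probe sets, 0.0276% of all, passed). Same-numbered arrays of these groups deviated together, but samples 2 and 3 taken crosswise did so too. Wild type 3 did so more with catalase-Tg 2 (r = 0.36) than with catalase-Tg 3 (r = 0.31). Sample 1 of either group deviated in the opposite direction to samples 2 and 3 of the other (r from −0.38 to −0.26). Col5a2 also passed without wild type 2 (5.85 lower, adjusted p 0.049), without the 3 arrays (4.80 lower, SE 0.34) and with array weights (adjusted p 0.038), where 1.49%, 0.171% and 0.0331% of all probe sets passed. Array weights and the omission of the 3 arrays narrow the spread by construction. Over all alternatives the adjusted p of Col5a2 (limma) ran from 0.00325 to 0.755.

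The other members of this comparison were less far apart. Nid1 was 1.60 (SE 0.67) lower, Lamb1 0.60 (SE 0.26) and Col4a4 0.55 (SE 0.25) lower, with adjusted p between 0.534 and 0.545. Ccn2 was 2.29 (SE 1.27) lower and Timp2 2.15 (SE 1.20) lower, and both overlapped with wild type through its sample 2. Without wild type 1 they were 1.03 and 0.96 lower, Nid1 1.02, Lamb1 0.37 and Col4a4 0.35 lower, and without wild type 2 they were 3.89, 3.52, 2.28, 0.80 and 0.76 lower. In all, 23 of the 24 differences changed by over 1.5 times or changed sign (7) with 1 array left out. Of the 2 other Col4a4 probe sets 1 was 0.28 lower and 1 was 0.15 higher, so the Col4a4 probe sets disagreed in this comparison. Tgfb2, Tgfbr1 and Tgfbr2 were 0.26 (SE 1.06), 0.57 (SE 0.37) and 0.26 (SE 0.34) lower.

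In dB/dB catalase-Tg against dB/dB, the transgene compared within dB/dB mice, 23 of 24 genes were lower and Timp3 was higher by 0.30 (SE 0.44). The median difference was −0.79 against −0.02 over all probe sets. None passed the adjusted threshold, against 0.00551% of all, and 4 (16.7%) had an unadjusted p under 0.05, against 7.5% of all. For 5 genes (20.8%) the groups did not overlap with the transgenic group lower, which was so for 11.1% of all probe sets, and for 0 genes with it higher (4.87% of all). These were Nid1, Col4a4, Lamb1, Ccn2 and Nid2.

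Nid1 was 2.61 (SE 0.67) lower, with 2 of the 3 transgenic values at or below 3.08, close to the floor, and Ccn2 was 2.98 (SE 1.27) lower, a 7.90-fold ratio. Nid2 was 0.39 (SE 0.43) lower. Col4a4 was 0.91 (SE 0.25) and Lamb1 0.68 (SE 0.26) lower, and all 3 Col4a4 probe sets were lower without overlap. Each of these 4 had an adjusted p of 0.636. Col1a2 was 1.66 (SE 0.79), Timp2 2.52 (SE 1.20) and Bgn 2.42 (SE 1.17) lower, where dB/dB catalase-Tg 1 overlapped with dB/dB. Col4a1 was 0.51 (SE 0.29) and Tgfb2 1.08 (SE 1.06) lower. With 1 array left out, 16 of the 24 differences changed by over 1.5 times or changed sign (3), but not those of Nid1, Ccn2, Col4a4 and Lamb1. With array weights 18 of the 24 (75.0%) passed the threshold, all lower, against 38.5% of all probe sets, and without the 3 arrays 15 (62.5%) passed it, 14 lower and Timp3 higher, against 27.8% of all. Both counts include Eln and Fn1, and the count with array weights also includes Mmp14. Each of these genes passed the filter only with its dB/dB arrays, so the counts are in part fixed by the filter. Both settings also narrow the spread by construction, since they favour arrays close to their group.

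In dB/dB catalase-Tg against catalase-Tg, 19 of 24 genes were higher and 5 lower in the dB/dB background, with a median of 0.42 against −0.10 over all probe sets. None passed the adjusted threshold (0.0276% of all did), and 0 had an unadjusted p under 0.05 (6.86% of all did). Ccn2 alone did not overlap, higher by 1.54 (SE 1.27), where 6.67% of all probe sets were higher and 9.35% lower without overlap. Col5a2 was 1.97 (SE 1.12), Tgfbr1 0.56 (SE 0.37), Lamb1 0.34 (SE 0.26), Fn1 0.70 (SE 0.63) and Bgn 1.25 (SE 1.17) higher, with adjusted p from 0.762 to 0.829. Each of the 4 groups enters 2 of these comparisons, so their values are given side by side and not as independent results. Without dB/dB catalase-Tg 1, the median of the 24 was −0.04, Ccn2 was 0.70, Col5a2 0.80 and Bgn 0.06 higher, and Fn1 was at −0.07; without catalase-Tg 1, Lamb1 was 0.11 higher. All 24 differences changed by over 1.5 times or changed sign (13) with 1 array left out.

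**Figure D4:**
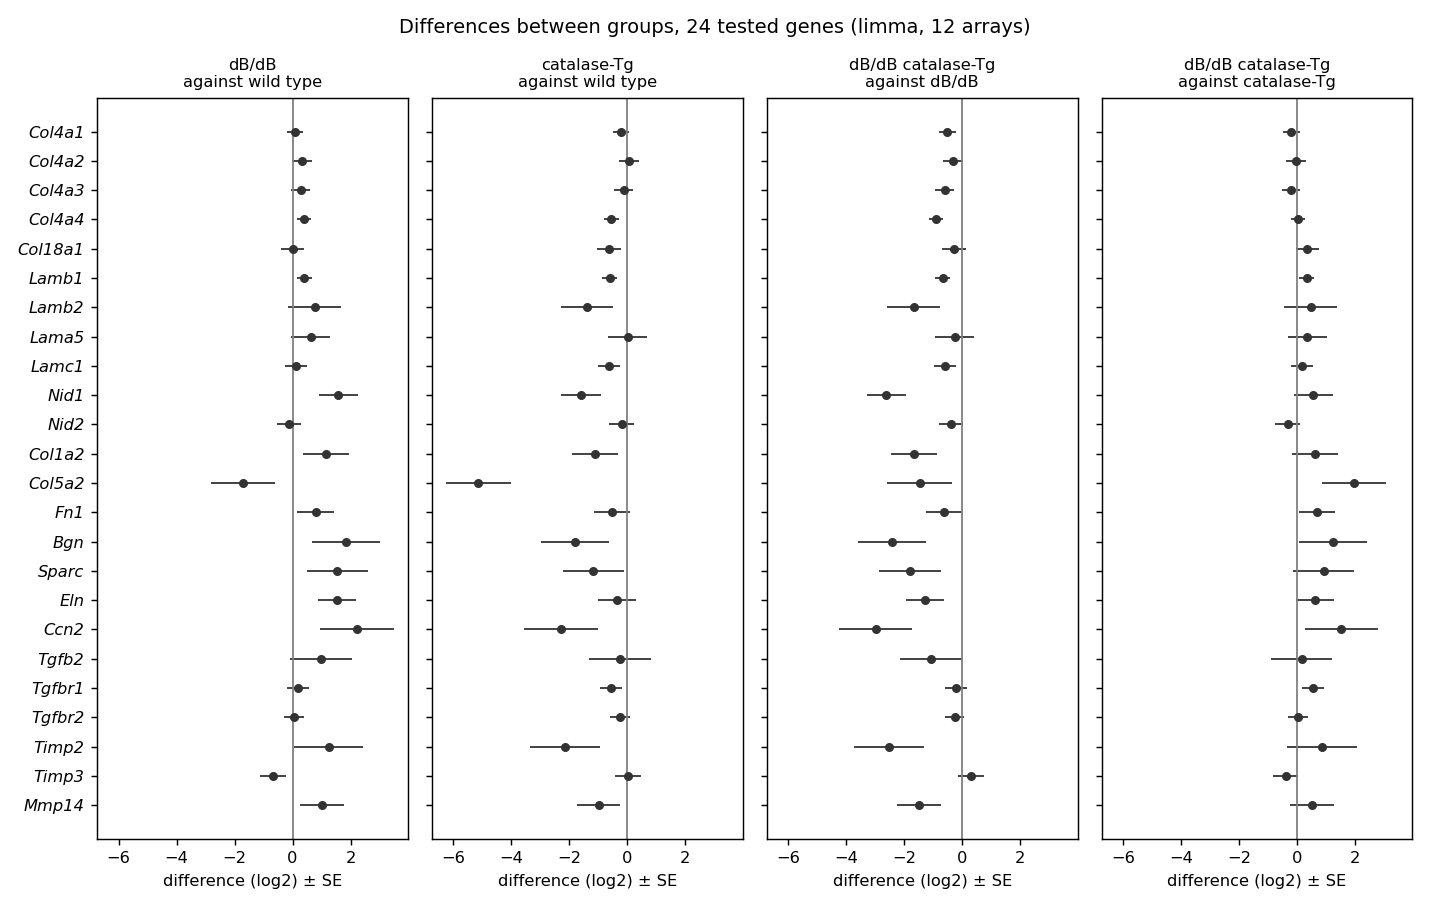
Difference between groups (log2) with its SE for the 24 tested genes in 4 comparisons, from limma fitted on all 12 arrays. Points lie mostly above 0 in dB/dB against wild type and mostly below 0 in both transgene comparisons, with Col5a2 at −5.14 in catalase-Tg against wild type.

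The interaction, the transgene difference in dB/dB mice minus that in other mice, was below 0 for 18 genes and above 0 for 6, with a median of −0.32 (0.01 over all probe sets). None passed the adjusted threshold (0.00551% of all did). Col5a2 was the 1 gene with an unadjusted p under 0.05 (1.64% of all), at 3.68 (SE 1.58) and an adjusted p of 1.00, the transgene difference being −1.46 in dB/dB and −5.14 in other mice. The median changed sign, to 0.14, without wild type 2.

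Averaged over both transgene states, the dB/dB difference was above 0 for 21 of 24 genes, with 0 past the adjusted threshold (0.0165% of all) and 2 at an unadjusted p under 0.05 (12.2% of all). The 2 include Eln, which was kept only through its dB/dB values. Averaged over both genotypes, the transgene difference was below 0 for 23 of 24, with 0 past the adjusted threshold (0.0276% of all) and 11 (45.8%) at an unadjusted p under 0.05, against 18.1% of all. The 11 were Nid1, Col5a2, Col4a4, Lamb1, Ccn2, Timp2, Bgn, Col1a2, Lamb2, Mmp14 and Lamc1. Mmp14 passed the filter only with its dB/dB arrays, so its place among the 11 is in part fixed by the filter. Nid1 was 2.11 (SE 0.48) lower, Col5a2 3.30 (SE 0.79), Col4a4 0.73 (SE 0.18), Lamb1 0.64 (SE 0.18) and Ccn2 2.64 (SE 0.90) lower, with adjusted p from 0.174 to 0.201. By role, the medians of the averaged transgene difference were −0.37 for basement membrane collagens, −0.63 for laminins and nidogens, −1.49 for glycoproteins and proteoglycans and −0.39 for TGF-beta ligands and receptors. Without wild type 2, the lowest wild type array for 22 of the 24 genes, 6 (25.0%) passed the threshold in this average, against 5.34% of all probe sets. Col5a2, Ccn2 and Col4a4 were among them. Without wild type 1, the highest for 22, none passed, and Ccn2 was 2.00 and Nid1 1.82 lower. With 1 array left out, 14 of the 24 averaged transgene differences changed by over 1.5 times or changed sign (2). Of the averaged dB/dB differences, 22 did so, 6 of them in sign. With the replicate block, Col5a2 alone passed the threshold (limma, adjusted p 0.040, with 0.0386% of all passing). Same-numbered arrays of dB/dB catalase-Tg and dB/dB did not deviate together, however.

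With the mean of the endothelial, podocyte and fibroblast and mural scores as a covariate, most differences were smaller. That mean itself differed between groups. It was 0.69 to 2.16 in dB/dB and −1.80 to −0.91 in catalase-Tg, with −1.73 to 1.98 in wild type and −1.35 to 1.32 in dB/dB catalase-Tg. The fit therefore cannot tell a marker difference from a group difference, and the adjusted values are given as a description. In the averaged transgene difference 19 of 24 were smaller in size and 15 had the opposite sign, and the median went from −0.66 to 0.04. Ccn2 went from −2.64 to −0.18 (SE 0.35), Timp2 from −2.33 to 0.05 (SE 0.22) and Bgn from −2.12 to 0.12 (SE 0.36). The 4 values farthest from 0 were then those of Col5a2, from −3.30 to −1.34 (SE 0.53), Tgfb2, from −0.67 to 1.12 (SE 0.56), Nid1, from −2.11 to −0.83 (SE 0.23), and Lama5, from −0.12 to 0.81 (SE 0.47). Of these, Tgfb2 and Lama5 moved away from 0 and changed sign. In catalase-Tg against wild type, Col5a2 was then 3.21 (SE 0.66) lower with an adjusted p of 0.437. In dB/dB against wild type the median went from 0.52 to 0.07, 17 of 24 differences were smaller in size, and Ccn2 went from 2.23 to 0.64 (SE 0.39). Col5a2 moved the other way there, from −1.71 to −2.97 (SE 0.61), with an adjusted p of 0.955. None of the 24 passed the threshold with the covariate in any comparison.

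**Figure D5:**
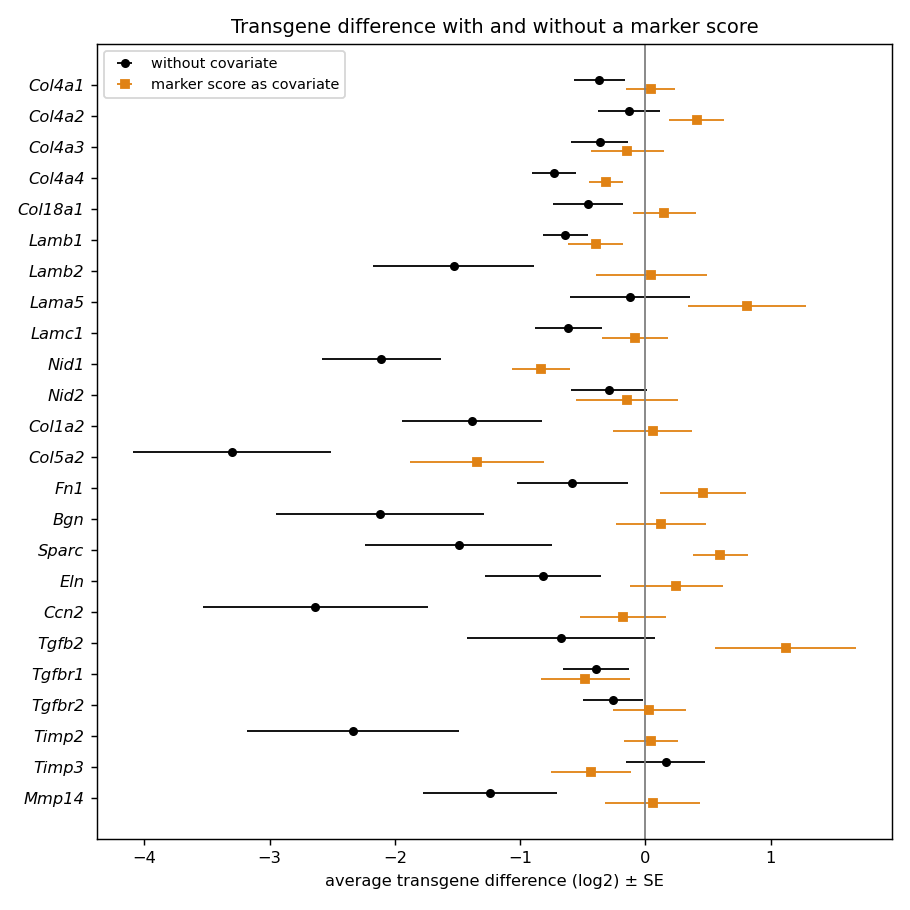
Average transgene difference (log2) with its SE for the 24 tested genes, without (circles) and with (squares) the mean marker score as a covariate. The marker score itself differed between groups. For 19 of 24 genes the square lies nearer to 0 than the circle, with Col5a2 at −1.34 and Nid1 at −0.83, while Tgfb2 goes to 1.12 and Lama5 to 0.81.

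Of 45 TGF-beta pathway genes outside the 43, 35 were tested, with median differences of 0.04 in dB/dB against wild type, −0.35 in catalase-Tg against wild type, −0.25 in dB/dB catalase-Tg against dB/dB, then 0.21 in dB/dB catalase-Tg against catalase-Tg. With 0 past the adjusted threshold (limma), 0, 5, 3 and 2 of the 35 (0, 14.3, 8.57 and 5.71%) had an unadjusted p under 0.05 in these comparisons, where the shares of all probe sets were 4.16, 9.15, 7.5 and 6.86%. The genes named below from this and the next lists had the smallest p of their list, and none passed the adjusted threshold. Pmepa1, a TGF-beta target that restrains SMAD signalling, had the smallest p of the list in all 4. Its values were 7.59, 5.97 and 6.51 in wild type, 4.38, 5.38 and 5.08 in catalase-Tg, 7.67, 7.07 and 7.74 in dB/dB, with 6.67, 6.36 and 6.25 in dB/dB catalase-Tg. The catalase-Tg arrays were below all others. It was 1.74 (SE 0.40) lower in catalase-Tg than in wild type (adjusted p 0.355) and 1.07 (SE 0.40) lower in dB/dB catalase-Tg than in dB/dB. Ltbp3, which holds latent TGF-beta, was 1.79 (SE 0.67) lower and Bmpr2, a BMP receptor, 0.65 (SE 0.27) lower in catalase-Tg, and Bambi, a decoy receptor, was 1.32 (SE 0.54) lower in dB/dB catalase-Tg than in dB/dB. In dB/dB against wild type, Eng, an endothelial co-receptor that is also among the endothelial markers here, was 1.72 (SE 0.90) higher and Ltbp4 1.44 (SE 0.75) higher.

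Of 44 other matrix genes, 19 were tested, and 0, 3, 2 and 2 (0, 15.8, 10.5 and 10.5%) had an unadjusted p under 0.05 in the same 4 comparisons, against the shares of all probe sets just given. Efemp1, the glycoprotein fibulin-3, stood at 8.84, 6.14 and 6.76 in wild type, 4.15, 4.91 and 5.06 in catalase-Tg, 8.09, 7.08 and 8.46 in dB/dB, with 7.15, 6.86 and 7.28 in dB/dB catalase-Tg. It was 2.54 (SE 0.61) lower in catalase-Tg than in wild type (adjusted p 0.376), without overlap. Lama1, a laminin alpha chain of tubular basement membrane, was 0.81 (SE 0.27) higher in catalase-Tg than in wild type. Mgp, which inhibits calcification of matrix, was 3.32 (SE 1.75) higher and Fbln2 1.80 (SE 0.94) higher in dB/dB than in wild type, both without overlap. Col4a5, the partner of Col4a3 and Col4a4, was 0.67 (SE 0.23) lower in dB/dB catalase-Tg than in dB/dB.

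Of 35 genes for the processing of collagen and matrix, 19 were tested, with 0, 7, 3 and 1 (0, 36.8, 15.8 and 5.26%) at an unadjusted p under 0.05 in those comparisons, against 4.16, 9.15, 7.5 and 6.86% of all. Plod2, a lysyl hydroxylase, was 1.10 (SE 0.39) lower in catalase-Tg than in wild type and 1.23 (SE 0.39) lower in dB/dB catalase-Tg than in dB/dB, both without overlap. Pcolce, which enhances procollagen cleavage, was 2.35 (SE 0.94) lower in catalase-Tg than in wild type, with overlap, and Reck, a membrane inhibitor of metalloproteases, 1.46 (SE 0.53) lower. Of 18 matrix receptors, 11 were tested, and all 11 were lower with the transgene in both genetic backgrounds, with medians of −0.93 and −0.62 against −0.02 over all probe sets in both. Of the 11, 6 (54.5%) had an unadjusted p under 0.05 without the dB/dB genotype and 2 (18.2%) with it, against 9.15 and 7.5% of all. Itga6, a laminin receptor chain, was 0.96 (SE 0.29) lower in catalase-Tg than in wild type, and Itgb5 1.08 (SE 0.41) lower in the same comparison and 1.05 (SE 0.41) lower in dB/dB catalase-Tg than in dB/dB.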

How the data were processed

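The 12 arrays, 3 in each of 4 groups taken from the sample titles, were deposited as log2 values per probe set. Per the submitters' processing notes, the authors used GCRMA, which corrects background by probe sequence and normalizes the arrays to each other, and limma. Their versions and settings are not given in the sources used here. The values have a floor of 2.30, below which no difference can be seen, so differences of dim genes are understated. RNA input was 6 ug, per the labels. The number of arrays limits the precision.

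Symbols came from GEO's annotation of the array: of 45037 probe sets that were not array controls, 34945 had 1 symbol, 932 several and 9160 none. All 42 Entrez identifiers of the listed genes were found in the RefSeq gene table of GRCm38.p6 with equal symbols. Of the 24 tested genes, 12 had further probe sets past the filter, 20 in all.

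Differences were fitted with limma 3.58.1 in R 4.3.3 (1 mean per group, all 12 arrays, default empirical Bayes), with Benjamini-Hochberg adjustment over the 18144 probe sets above 4 on at least 3 arrays and a threshold of 0.05. Adjusted p-values and SE are from this fit. The 7 contrasts were the 4 between groups, the interaction, and the average dB/dB and transgene effects. The genes, lists, filter and alternatives were chosen with earlier results of these data known. All values were given for Tgfb1, Tgfb2, Tgfb3, Tgfbr1, Tgfbr2, Ccn2, Fn1, Col1a1 (by its highest value), Col3a1 and the type IV chains Col4a1 to Col4a4, and for up to 6 genes with the smallest p and those without overlap in a comparison between groups. Genes of each other list were named from the up to 3 with the smallest p in each comparison.

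Pairing by replicate number was checked as the correlation of same-numbered arrays' deviations from their group means. It was 0.20 to 0.40 for catalase-Tg and wild type, 0.43 to 0.61 for dB/dB catalase-Tg and catalase-Tg, 0.10 to 0.17 (lowest 0.097) for dB/dB and wild type, and −0.13 to 0.11 for dB/dB catalase-Tg and dB/dB, so numbers met the criterion for pairing (every pair over 0.1) in the former 2 comparisons. Differently numbered arrays, samples 2 and 3 taken crosswise, reached 0.36 and 0.56 in those, so the numbers do not tell samples 2 and 3 apart. Sample 1 of wild type, of catalase-Tg and of dB/dB catalase-Tg, the arrays of lowest weight, deviated together (r from 0.40 to 0.71). Neither batches nor scan dates were used.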

Additional observations from a re-analysis of the deposited data

How the results depend on the processing

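The main fit called 0 of the tested genes, so there was no call that an alternative could reverse. Among 23 alternative fits of the count of tested genes past the threshold, 0 genes were called with no filter, a stricter filter, trended and robust spread, median centring, quantile normalization, the mean of a gene's probe sets, only the groups compared, or the marker score as covariate. With array weights, 1 gene passed in catalase-Tg against wild type, 18 in dB/dB catalase-Tg against dB/dB, 4 in the average dB/dB effect and 17 in the average transgene effect (4.17, 75.0, 16.7 and 70.8% of the 24, against 0.0331, 38.5, 10.9 and 26.4% of all probe sets). Without the 3 arrays of low weight the counts were 11 in dB/dB against wild type, 1 in catalase-Tg against wild type, 15 in dB/dB catalase-Tg against dB/dB, 3 in the average dB/dB effect and 12 in the average transgene effect (45.8, 4.17, 62.5, 12.5 and 50% against 26.9, 0.171, 27.8, 19.4 and 20.5% of all). Both settings favour arrays close to their group, which narrows the spread by construction. Eln, kept only through its dB/dB arrays, is in each of these counts except those of catalase-Tg against wild type. Fn1 and Mmp14, which also passed the filter only with their dB/dB arrays, are in some of them. With the replicate block, 1 gene, Col5a2, passed in catalase-Tg against wild type and 1, also Col5a2, in the average transgene effect, and the block changed no other call of these genes. Leaving out 1 array at a time gave 0 to 1 calls in catalase-Tg against wild type, 0 to 1 in the average dB/dB effect (Timp3, without wild type 1, when 6.87% of all passed) and 0 to 6 in the average transgene effect (6 without wild type 2, when 5.34% of all passed), and 0 in the other 4 comparisons. The median difference of the tested genes ran over these single omissions from 0.20 to 0.84 in dB/dB against wild type, −0.81 to −0.18 in catalase-Tg against wild type, −1.26 to −0.58 in dB/dB catalase-Tg against dB/dB and −0.04 to 0.73 in dB/dB catalase-Tg against catalase-Tg. Centring each array on its median left 19 genes above 0 and 5 below in dB/dB against wild type, where quantile normalization left 21 and 3, and moved the median of all probe sets to −0.17 and −0.03. Values near the floor limit Eln, Fn1, Mmp14, Col5a2 and Nid1.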
